A study of Mus musculus with 10 samples.

Results

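Glycolysis turns glucose into pyruvate and, through lactate dehydrogenase, into lactate. The 10 genes described here encode its enzymes in pathway order: Hk2 (hexokinase), Pfkl (the liver type of phosphofructokinase), Aldoa (aldolase), Tpi1 (triosephosphate isomerase), Gapdh (glyceraldehyde-3-phosphate dehydrogenase), Pgk1 (phosphoglycerate kinase), Pgam1 (phosphoglycerate mutase), Eno1 (enolase), Pkm (pyruvate kinase) and Ldha (lactate dehydrogenase A). They are 10 of 21911 protein-coding genes in the annotation. The genes were chosen by name around Pgk1, and Pgk1 itself was selected on the strength of the peaks upstream of its start in the wildtype lists, so that its own values are a description with no test. The question was whether the strong peaks upstream of Pgk1 have a parallel at the starts of the other 9 genes.

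Chromatin immunoprecipitation followed by sequencing (ChIP-seq) had been performed in AB17 cells, primary hepatocytes of a C57BL/6 mouse with the Arid1afl/fl genotype that were immortalized with SV40 large T antigen, given H-Ras V12D by a pLPC virus and screened with puromycin. All groups share this background. Cells infected with Ad-GFP, the control adenovirus, are the wildtype (WT) cells, and cells infected with Ad-Cre, which deletes the floxed part of Arid1a, are the knockout (KO) cells. H3K9me3, a histone mark of constitutive heterochromatin, and H3K27me3, the mark of Polycomb repression, were profiled in both, whereas 4 factors were profiled in WT cells. These were Arid1a and Brg1, which belong to the SWI/SNF remodeling complex, the DNA-binding protein Ctcf of loop anchors, and Rad21 of the cohesin ring. Each of the 8 peak lists came from 1 library, so differences could not be checked over replicates and carry no p-value. The lists held between 70408 (Arid1a) and 143835 (WT H3K9me3) summits, the depth behind them is unknown, and the deletion was not checked here because summits give no read coverage.

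A summit is the highest point of a peak, and its strength is the −log10 of the q-value that the peak caller gave. The strength grows with sequencing depth, so values were ranked within a list, and sizes from different lists are not comparable. A summit belonged to a gene start when it lay within 2 kb of the outermost annotated start of the gene ID used, and a strength of at least 10 was called strong. This single limit called 27.2% of Ctcf, 13.7% of Rad21 and 2.29% of WT H3K27me3 summits strong. For WT H3K9me3, Brg1 and Arid1a it called 0.229%, 0.146% and 0.111%. Counts of lists with a strong summit therefore do not weigh the lists alike. Positions are given in bp from the start, negative upstream, in mm10.

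Glycolytic genes are expressed in most cells, and many of their promoters are rich in CpG. Pgk1 lies on the X chromosome (chrX:106187100-106203699, plus strand), and hypoxia-inducible factor, which binds the core ACGTG, is a known activator of Pgk1, Ldha and other genes of the pathway. The sequence of the Pgk1 start is shown first, because 5 strong WT summits fell into the 84 bases given in capitals (the 300 bases equal the RefSeq promoter of GRCm38).

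Pgk1 start, chrX:106186850-106187149, plus strand: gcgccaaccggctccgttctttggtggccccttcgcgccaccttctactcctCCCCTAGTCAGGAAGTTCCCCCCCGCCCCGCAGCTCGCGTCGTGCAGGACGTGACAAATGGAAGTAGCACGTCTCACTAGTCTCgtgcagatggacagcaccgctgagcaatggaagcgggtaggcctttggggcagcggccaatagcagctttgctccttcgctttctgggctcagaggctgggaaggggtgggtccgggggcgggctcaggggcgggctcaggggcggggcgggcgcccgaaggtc

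The stretch in capitals ran from −198 to −115 bp, was intergenic in the annotation and lay upstream of the first exon. It held 7 CpG and a GC content of 61.9%, against 66.7% over the whole 300 bases. The core ACGTG occurred at −150 to −146 on the plus strand and at −131 to −127 on the minus strand, both within the capitals, and the CCAAT box lay at −58. The GC box GGGCGG occurred 5 times in the 300 bases, at −176 on the minus strand and 4 times downstream of the start. The stretch matched no other place on the assembled chromosomes in a search that left out short and less similar matches. In the same search the 500 bases on each side of the start had 2 further matches, both of which began at +79 or later.

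At this stretch the WT H3K9me3 summit lay at −174 bp with a strength of 53.4. The Arid1a summit lay at −198 bp with a strength of 27.01, and the Brg1 summit at −115 bp with a strength of 27.3. The Ctcf summit lay at −146 bp with a strength of 22.4, and the Rad21 summit at −123 bp with a strength of 33.0. A heterochromatin mark, both SWI/SNF subunits and both architectural proteins were thus listed within 83 bp of each other. The sequences carried by the viruses that the cells had received were not analysed here, and a list of mapped summits cannot separate reads of the chromosomal Pgk1 promoter from reads of an introduced copy, which limits each strong value at this start. A further Brg1 summit lay in the first part of the gene at +973 bp with a strength of 2.14. The KO H3K9me3, WT H3K27me3 and KO H3K27me3 lists had no summit within 2 kb of the start.

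**Figure D1:**
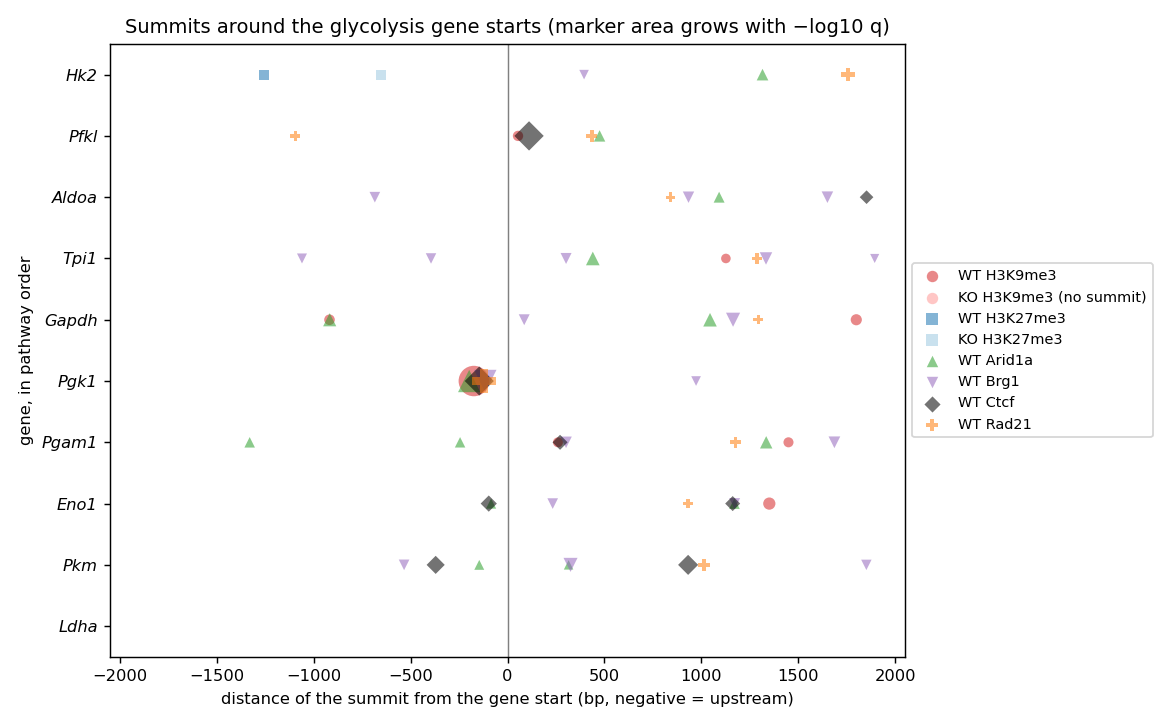
Summits within 2 kb of the 10 gene starts; the x axis gives the distance from the start in bp, each row is a gene, colour and shape give the list, and the marker area grows with −log10 q. The strong summits of Pgk1 coincide between −198 and −115 bp, while the summits of the other genes are mostly spread along the window and, except Ctcf at Pfkl (22.8), stay at or below 8.79; KO H3K9me3 has no summit in any row.

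By rank, the Pgk1 summit was number 3 of 143835 in the WT H3K9me3 list, number 5 of 70408 in the Arid1a list and number 9 of 81527 in the Brg1 list. In each of these 3 lists it was the strongest summit on the X chromosome, where the next reached 21.2 (H3K9me3), 14.1 (Arid1a) and 19.8 (Brg1). The X chromosome held 1956 (H3K9me3), 218 (Arid1a) and 273 (Brg1) summits of these lists. In the architectural lists it ranked lower, with Rad21 at rank 2623 of 101647 and 4 on the X chromosome, and Ctcf at rank 15187 of 91355 and 185 on the X chromosome. Counted over gene starts, Pgk1 had rank 1 of 21911 for WT H3K9me3, rank 2 for Arid1a and rank 3 for Brg1, but rank 324 for Rad21 and 2417 for Ctcf.

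The other starts that ranked high for WT H3K9me3 were of another kind, as seen after their values were known. A strong WT H3K9me3 summit was found at 18 starts. Of these, 17 also had a KO H3K9me3 summit, and the 1 without was Pgk1. The next strongest after Pgk1 was the predicted gene Gm10801, with 44.0 in WT and 70.4 in KO. A strong Brg1 summit was present at 1 of the 18, again Pgk1. Over the genome rather than the starts, 330 WT H3K9me3 summits were strong. Within 500 bp of them, 315 had no strong summit of any of the 4 factors, 12 had that of 1 factor, 2 had those of 2 factors, and the summit at Pgk1 was the only 1 with all 4.

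Around Pgk1 the other lists were sparse. Within 100 kb of the start, no further summit was listed for WT H3K9me3, Arid1a or either H3K27me3 list, and the next WT H3K9me3 summit lay 203747 bp away. Brg1 had a further summit within the gene at +11490 bp (2.56). The KO H3K9me3 list had 3 summits there, at most 2.47 in strength, with the nearest 78886 bp from the start. On the whole X chromosome, the KO H3K9me3 list held 3034 summits and the WT list 1956. Arid1a had 218 of its 70408 summits there and Brg1 273 of 81527, and H3K27me3 had 811 in WT and 388 in KO. These lists were thus sparse on the X chromosome as a whole, and the lack of neighbouring summits cannot be read as particular to Pgk1. Ctcf had 9 further summits within 100 kb, of which the strongest lay at −21797 bp (25.5), and −15875 bp (16.6) and +11630 bp within the gene (14.5) followed. Rad21 had 3 further summits, with a highest strength of 9.66 at −15909 bp. Of the 3 neighbouring genes that start within 100 kb, Tlr13 and Fnd3c2 had no summit at their starts in any list, and Taf9b had Ctcf (6.16) and Rad21 (3.94).

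**Figure D2:**
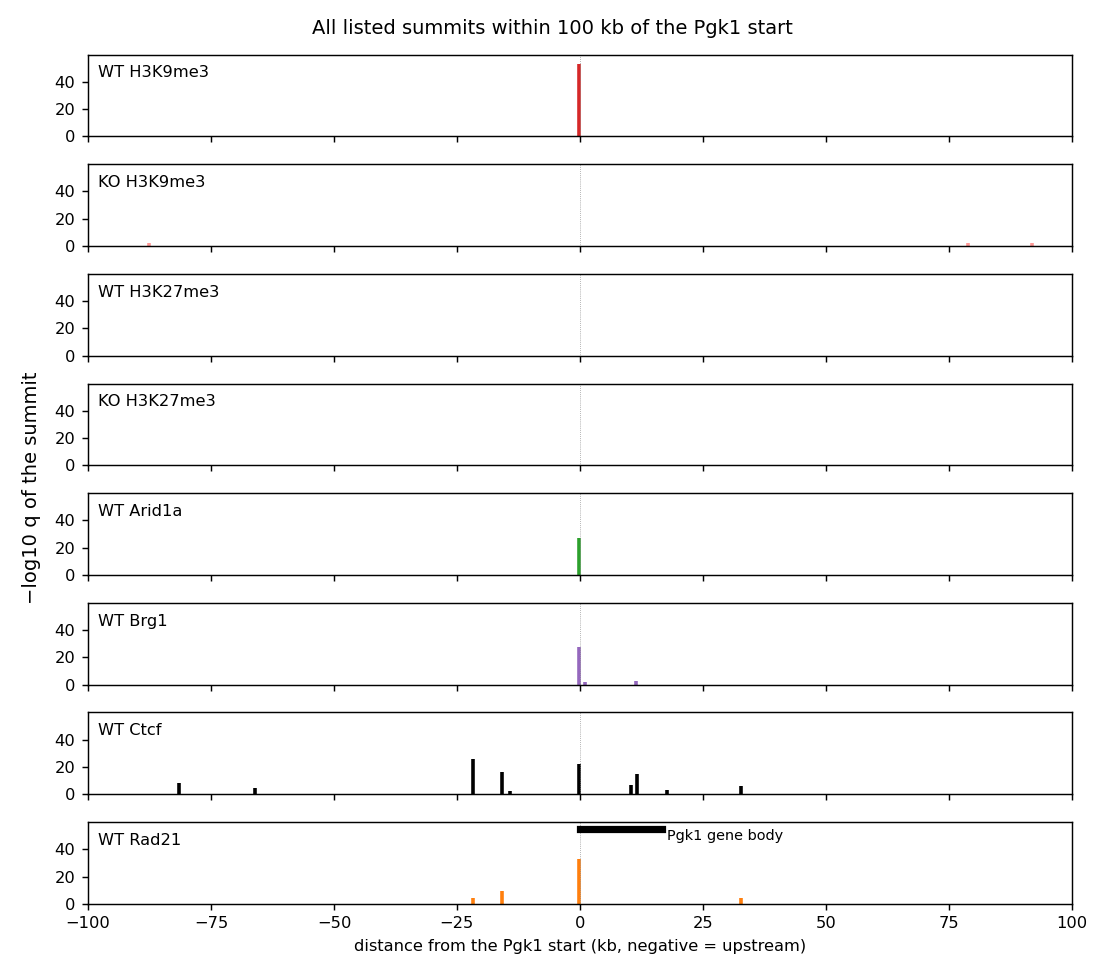
All listed summits within 100 kb of the Pgk1 start; the x axis gives the distance in kb, the height of each line the −log10 q, and each panel is 1 list. In the WT H3K9me3 (53.4) and Arid1a (27.01) panels the line at the start stands alone, in the Brg1 panel (27.3) it has 2 low lines downstream, at +973 bp (2.14) and +11490 bp (2.56), in the Ctcf and Rad21 panels it has further lines on both sides, and the KO H3K9me3 panel has 3 low lines far from the gene.

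The other 9 starts showed no such set of strong summits. A start with a strong summit in any WT list was found for 2 of the 10 genes, Pgk1 and Pfkl. Without Pgk1 this was 1 of 9 (1.99 to 43.5%), an interval that includes the 23.1% of all starts. Strong summits of 5 or more WT lists were found at Pgk1 alone, which is 0.00456% of all starts. The background shares of strong starts were 0.0822% for WT H3K9me3, 0.196% for Arid1a, 0.319% for Brg1, 17.5% for Ctcf, 9.09% for Rad21 and 5.22% for WT H3K27me3. Among the 10 genes they were reached by Pgk1 in each of the first 5, by Pfkl for Ctcf, and by no gene for WT H3K27me3. The strong value nearest to the limit of 10 was Ctcf at Pgk1 (22.4). Nearest below the limit were Ctcf at Pkm (8.79), Brg1 at Gapdh (8.67) and Brg1 at Pkm (8.53). These are named for their place beside the limit, since sizes are not comparable between lists. With 5 as the limit, 8 of the 10 starts had a strong WT summit, and Pgk1 kept its 5 lists with 20 as the limit. The highest values of the other 9 starts were 5.59 for WT H3K9me3 (Eno1), 7.87 for Arid1a (Tpi1), 8.67 for Brg1 (Gapdh), 22.8 for Ctcf (Pfkl) and 7.33 for Rad21 (Hk2).

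**Figure D3:**
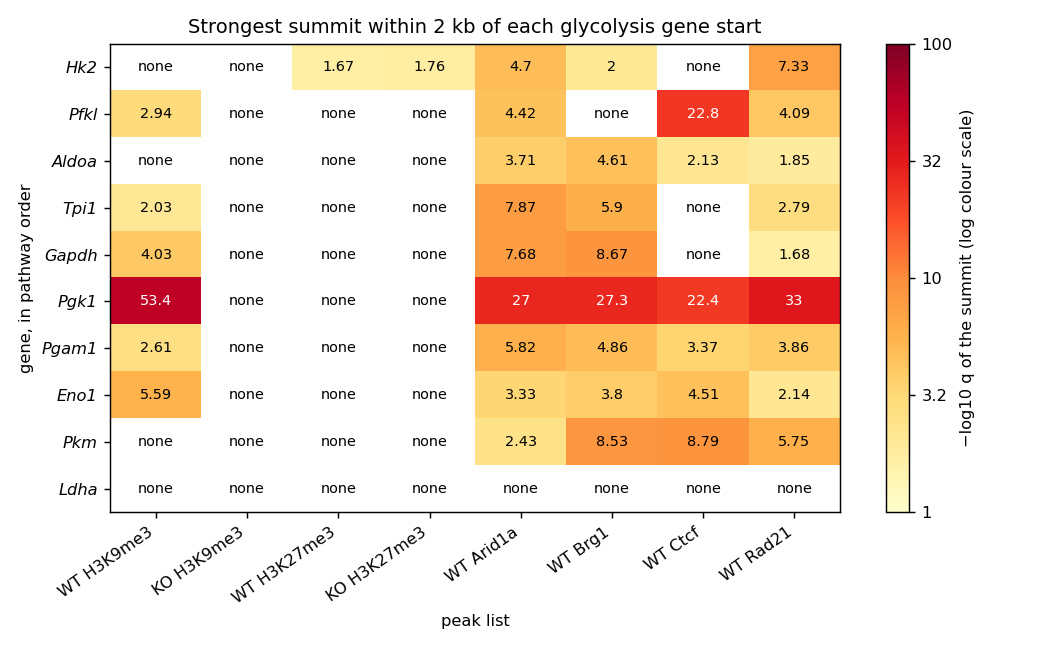
Strongest summit within 2 kb of each gene start, with genes in pathway order as rows and the 8 peak lists as columns; colour and number give −log10 q on a log colour scale, and white cells marked none hold no summit. The Pgk1 row is the darkest with 22.4 to 53.4 in 5 WT lists, Pfkl reaches 22.8 for Ctcf, and the KO H3K9me3 column is empty.

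Weaker summits were present at most of the other starts, and they are counted here over the 9 genes without Pgk1, since Pgk1 was selected on these lists. Arid1a summits were present at 8 of 9 starts (95% Wilson interval 56.5 to 98.0%, counting error only), against 35.2% of all starts. Brg1 summits were present at 7 of 9 (45.3 to 93.7%) against 39.6%. Rad21 summits were present at 8 of 9 (56.5 to 98.0%) against 50.6%, but over the 10 genes the Rad21 count of 9 went to 4 with a window of 1 kb and to 5 with a strength of at least 3. For Ctcf and for WT H3K9me3 the count was 5 of 9 (26.7 to 81.1%) against 42.5% and 38.7%, an interval that includes both backgrounds. Ldha was the gene without Arid1a and Rad21, and Ldha and Pfkl were those without Brg1. All 4 factors were listed at 4 of 9 (Aldoa, Pgam1, Eno1 and Pkm; 18.9 to 73.3%) against 16.6% of all starts. All 4 factors with WT H3K9me3 were listed at 2 of 9 (Pgam1 and Eno1; 6.32 to 54.7%), an interval that includes the background of 11.3%. With Pgk1 these counts were 5 and 3 of the 10 genes. Among starts that had a summit, the median strength of the other genes was 4.56 for Arid1a and 4.86 for Brg1, with 3.23 for each over all starts, whereas for Ctcf it was 4.51 against 6.96 and for Rad21 3.32 against 4.35.

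**Figure D4:**
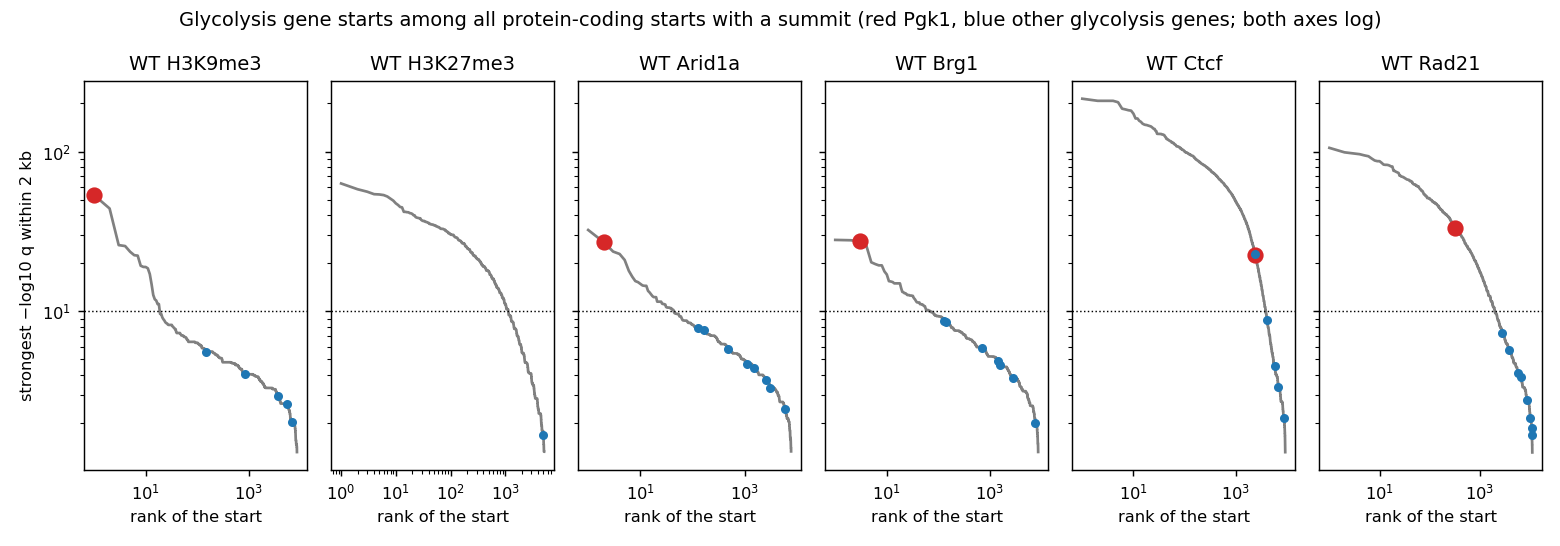
Strength of the strongest summit within 2 kb (y axis, log) against its rank among all protein-coding starts with a summit (x axis, log) for the 6 WT lists; the grey line is all starts, red is Pgk1, blue are the other glycolysis genes, and the dotted line marks a strength of 10. Pgk1 stands at ranks 1, 2 and 3 for H3K9me3, Arid1a and Brg1, and at 2417 and 324 for Ctcf and Rad21, while the blue points lie below the dotted line except Pfkl for Ctcf.

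In the upper part of the pathway, Hk2 (chr6:82725025-82774454, minus strand), the inducible hexokinase that commits glucose to the cell, had 1 summit each of Arid1a at +1316 bp (4.70), Brg1 at +395 bp (2.005) and Rad21 at +1758 bp (7.33). It was the gene of the 10 with H3K27me3 at the start, at −1258 bp in WT (1.67) and −651 bp in KO (1.76). Over all starts, 23.4% had H3K27me3 in WT and 19.8% in KO. Pfkl (chr10:77986947-78010083, minus strand), the liver form of the enzyme that commits sugar to glycolysis, carried its strong Ctcf summit at +111 bp in an intron (22.8) and a WT H3K9me3 summit 57 bp from it, at +54 bp (2.94). Its Arid1a summit at +475 bp (4.42) and Rad21 summit at +435 bp (4.09) lay farther in, and no Brg1 was listed. The start of the principal Pfkl transcript lies 276 bp downstream of the outermost start. Counted from there, the Ctcf summit lay upstream at −165 bp and the WT H3K9me3 summit at −222 bp. This placed them near the positions of the Ctcf (−146 bp) and H3K9me3 (−174 bp) summits of Pgk1. Arid1a (+199 bp) and Rad21 (+159 bp) stayed downstream. The 500 bases on each side of the Pfkl start hold repeated sequence, with 208098 other matches in the reference, and the effect of that on its summits was not tested.

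Aldoa (chr7:126795234-126800751, minus strand), which splits the 6-carbon sugar, had Brg1 summits at +1651 bp (4.61), +934 bp (4.36) and −685 bp (3.37) and an Arid1a summit at +1092 bp (3.71). Its Ctcf (2.13) and Rad21 (1.85) summits were among the weakest of the 10 genes, and its start overlaps Fam57b, so a summit there cannot be assigned to 1 of both genes. A further annotated entry with the symbol Aldoa also covers the summit at −685 bp. That summit is therefore upstream only for the gene ID used here. Tpi1 (chr6:124810586-124814296, minus strand), which interconverts the 3-carbon products, had the highest Arid1a value of the other 9 starts at +440 bp (7.87), which 0.685% of all starts reached. Brg1 was listed 5 times there, between −1061 and +1895 bp, with the highest at +1334 bp (5.90), and WT H3K9me3 at +1127 bp reached 2.03.

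In the lower part, Gapdh (chr6:125161715-125166467, minus strand) had Brg1 at +1164 bp (8.67) and Arid1a at +1045 bp (7.68), values reached by 0.621% and 0.762% of all starts. Upstream of Gapdh, at −919 bp, a WT H3K9me3 summit (3.31) lay 1 bp from an Arid1a summit (7.03). Of 4602 starts with both, 17 had a pair as close, and the median distance was 368 bp. Gapdh had a second H3K9me3 summit at +1800 bp (4.03), a weak Rad21 summit at +1293 bp (1.68) and no Ctcf within 2 kb. Upstream of Gapdh, Arid1a and H3K9me3 were thus listed together, with lower values than at Pgk1. Its Brg1 summits (a second lay at +86 bp, 3.73) and Rad21 summit were downstream of the outermost start. This placing depends on the start. The RefSeq promoter of Gapdh used here (chr6:125165724-125166023) lies downstream of the outermost start, and the second Brg1 summit (chr6:125166381) lies upstream of that promoter.

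Pgam1 (chr19:41911923-41918660, plus strand) had WT H3K9me3 at +260 bp (2.48), Ctcf at +271 bp (3.37) and Brg1 at +302 bp (4.52) within its first exon and intron. Its strongest Arid1a summit lay about 1 kb downstream of these, at +1335 bp (5.82), beside H3K9me3 at +1450 bp (2.61). Upstream of Pgam1, Arid1a was listed at −245 bp (3.10) and −1331 bp (3.19). Eno1 (chr4:150236721-150248879, plus strand) had the highest WT H3K9me3 value of the other 9 starts, at +1351 bp in an intron (5.59), which 0.885% of all starts reached. Arid1a at +1171 bp (3.33), Brg1 at +1172 bp (3.80) and Ctcf at +1162 bp (3.35) lay within 10 bp of each other there. Upstream of Eno1, Ctcf at −97 bp (4.51, its strongest within 2 kb) and Arid1a at −85 bp (2.71) were listed together, neither of them strong. The smallest window with the 4 factors and WT H3K9me3 measured 83 bp at Pgk1, 420 bp at Eno1 and 1075 bp at Pgam1, with a median of 1071 bp over 2474 starts with all 5, and 5 starts, Pgk1 among them, had a window of at most 83 bp.

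Pkm (chr9:59656368-59679375, plus strand), whose M2 product is the pyruvate kinase of proliferating cells, had Brg1 at +325 bp (8.53) with Arid1a 10 bp away (1.87). Its Ctcf summits at +932 bp (8.79) and −371 bp (6.50) and its Rad21 summit at +1013 bp (5.75) flanked these, and no H3K9me3 was listed. Upstream of Pkm, its strongest Arid1a summit within 2 kb lay at −146 bp (2.43), and a further Brg1 summit at −534 bp (3.34). Ldha (chr7:46841475-46855627, plus strand) had no summit in any of the 8 lists at its outermost start. The start of its principal transcript lies 4364 bp downstream, and there Rad21 at −52 bp (3.26), Brg1 (3.93), Ctcf (4.73) and Arid1a (2.70) were listed, none of them strong, together with a KO H3K9me3 summit at +1264 bp (1.89). The RefSeq promoter of Ldha is shown because it holds the core ACGTG of the Pgk1 stretch 5 times, counted on both strands and given in capitals. Each of its 2 copies of CACGTG, which reads alike on both strands, was counted once per strand. The count therefore exceeds the number of separate sites in capitals.

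Ldha promoter, chr7:46845554-46845853, plus strand: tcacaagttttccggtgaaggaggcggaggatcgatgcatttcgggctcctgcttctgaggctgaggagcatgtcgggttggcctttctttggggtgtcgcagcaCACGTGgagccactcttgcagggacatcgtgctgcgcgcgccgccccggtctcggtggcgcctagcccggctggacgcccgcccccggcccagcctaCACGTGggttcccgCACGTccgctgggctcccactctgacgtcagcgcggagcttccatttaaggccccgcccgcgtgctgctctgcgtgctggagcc

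Of 16522 protein-coding promoters of 300 bases, 21.1% held ACGTG on either strand, as did 5 of the 10 glycolysis promoters (Hk2, Gapdh, Pgk1, Pgam1 and Ldha). The E-box CACGTG, which contains that core, was in 8.11% and in Ldha among the 10. GGGCGG was in 48.0% and in 7 of 10, CCAAT in 38.7% and in 4 of 10, and TATAAA in 12.9% and in none of the 10. The median GC content was 63.7% over the 10 promoters and 57.0% over all. Hk2 also held ACGTG 2 times, at a GC content of 67.3%, whereas GGGCGG occurred 5 times at Pgk1 and at most 3 times at the other 9.

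The 5 starts most like Pgk1 over the 8 lists, by the Euclidean distance of log10(1 + strength), were Jund, Ddit4, Parp16, Tab2 and Snapc5, at distances of 1.18 to 1.33. Parp16 came closest for the SWI/SNF subunits (Arid1a 22.8, Brg1 25.8) but had 4.79 for WT H3K9me3. Of the glycolysis genes, Pgam1 was at rank 1248 and Eno1 at rank 1375 in that order, and Ldha at 14888. Strong summits of 4 WT lists were found at 3 starts, Actb, Hexim1 and Npm3. Actb, another gene expressed in most cells, had Arid1a at 32.3, Brg1 at 27.8, Ctcf at 64.8 and Rad21 at 10.5, and no H3K9me3 in either genotype.

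H3K9me3 was listed more often in WT than in KO at these genes, at shares whose intervals included those of all genes. WT H3K9me3 without KO H3K9me3 was found at 6 starts (Pfkl, Tpi1, Gapdh, Pgk1, Pgam1 and Eno1; 31.3 to 83.2%) against 31.4% of all starts, and at 5 of the 9 without Pgk1 (26.7 to 81.1%). KO H3K9me3 was at 0 of 10 starts (0.0 to 27.8%) against 14.0%. Over the gene bodies with 20 kb on each side, the 10 genes held 65 WT and 16 KO summits. Hk2 had 13 and 7, Eno1 11 and 1, Tpi1 10 and 0, Pfkl 9 and 2, and Gapdh 6 and 1. Pgam1 had 6 and 0, Aldoa 4 and 1, Pkm 3 and 2, Ldha 2 and 2, and Pgk1 1 and 0. More WT than KO summits were thus found at 9 of the 10 (59.6 to 98.2%), all but Ldha, against 60.0% of all genes, and the medians over all genes were 5 in WT and 2 in KO. Except for Pgk1, no H3K9me3 summit at these loci was strong, the highest being 8.21 in WT (Eno1, +29374 bp) and 4.53 in KO (Hk2, −15600 bp). Depth and genotype cannot be told apart with 1 library each.

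**Figure D5:**
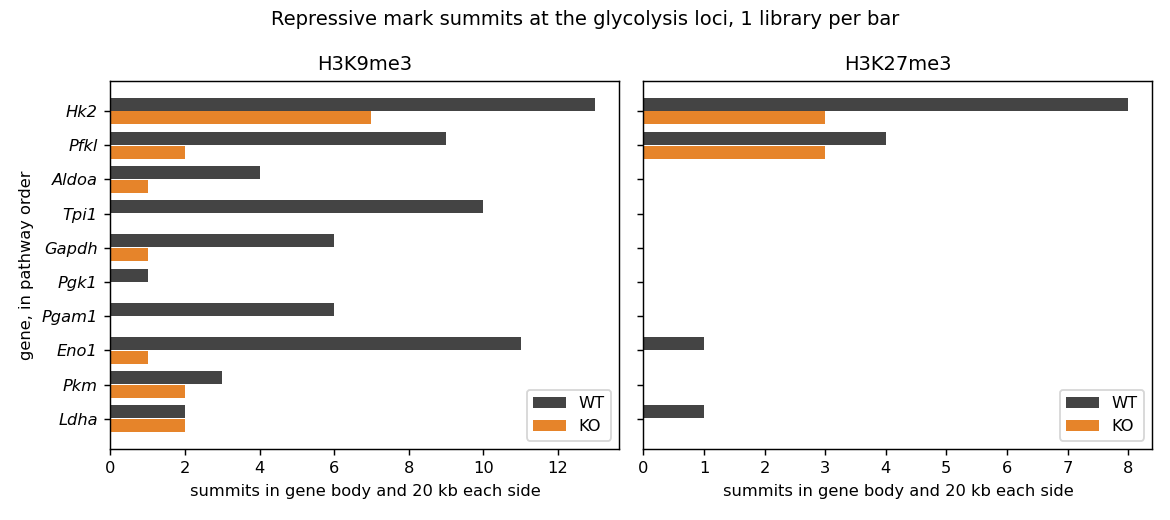
Number of H3K9me3 (left) and H3K27me3 (right) summits in each gene body with 20 kb on each side, with WT in grey and KO in orange, 1 library per bar. H3K9me3 bars are longer in WT for 9 genes, from 13 against 7 at Hk2 to 1 against 0 at Pgk1, and H3K27me3 is listed at Hk2 and Pfkl in both genotypes and at Eno1 and Ldha in WT.

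H3K27me3 summits lay at 4 of the 10 loci in WT (Hk2, Pfkl, Eno1 and Ldha; 16.8 to 68.7%) against 54.2% of all genes. In KO they lay at 2 (Hk2 and Pfkl; 5.67 to 51%) against 46.3%. Both intervals include the share of all genes, and the totals were 14 and 6. More WT than KO summits were found at 4 of 10 loci against 37.9%. The strong pair, 19.5 in WT and 19.8 in KO, lay 40728 and 40773 bp downstream of the Pfkl start, in an intron of the neighbouring gene Trpm2.

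Over the bodies with 20 kb on each side, a strong Ctcf summit was listed at Pgk1 and at 9 of the 9 other loci. For these 9 the interval was 70.1 to 100%, which includes the 70.6% of all genes. The median number of summits a locus was 10 for Ctcf, 8 for Rad21, 8 for Brg1 and 6 for Arid1a, beside medians of 5, 5, 3 and 2 over all genes, without correction for gene density or length. Within these bounds, the strongest Ctcf summit lay within 2 kb of the start at Pgk1 and farther away at the other 9. The place at Pgk1 depended on the bound of 20 kb. A stronger Ctcf summit lay just outside it, at −21797 bp (25.5, with 22.4 at the start). At the other 9, the strongest Ctcf summit within the bounds reached 85.2 at Pfkl (+25228 bp, in an exon of 1810043G02Rik), 66.8 at Eno1 (+3554 bp, intron) and 55.4 at Hk2 (+34151 bp, intron). It was 52.6 at Gapdh (+4302 bp, exon), 46.6 at Pkm (+3521 bp, intron) and 46.3 at Aldoa (+20557 bp, in Ypel3). It was 45.0 at Tpi1 (+4632 bp, in Spsb2), 28.0 at Pgam1 (−12914 bp, intergenic) and 10.6 at Ldha (+9536 bp, exon). The single strong SWI/SNF summit away from Pgk1 was Brg1 downstream of Gapdh at +5189 bp (13.0), in an exon of Iffo1, with Arid1a at +5232 bp (7.87). At Tpi1 the distal Ctcf summit had Brg1 at +4634 bp beside it (6.65).

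The sequences at 6 of these Ctcf summits are compared to show the range of their match to the Ctcf consensus, with both strong summits at starts and 4 of the distal ones, chosen for the best matches and for 1 of the poorest. Capitals mark the 12 bases closest to the consensus within 50 bp of the summit.

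Pgk1, chrX:106186914-106186954, plus strand: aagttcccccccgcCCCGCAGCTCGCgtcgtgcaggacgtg

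Pfkl, chr10:78009965-78010005, plus strand: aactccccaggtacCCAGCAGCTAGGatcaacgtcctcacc

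Hk2, chr6:82740323-82740363, plus strand: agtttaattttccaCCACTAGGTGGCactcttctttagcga

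Gapdh, chr6:125162137-125162177, plus strand: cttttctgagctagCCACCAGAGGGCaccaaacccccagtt

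Eno1, chr4:150240259-150240299, minus strand: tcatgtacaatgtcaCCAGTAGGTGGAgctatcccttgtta

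Pkm, chr9:59659848-59659888, minus strand: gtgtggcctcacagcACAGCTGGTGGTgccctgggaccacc

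The best match at the Pgk1 and Pfkl starts had 3 mismatches. At the strongest distal summits it had 0 at Hk2 and Gapdh, 1 at Eno1, 2 at Pfkl, Aldoa, Tpi1 and Pgam1, and 3 at Pkm and Ldha, so that starts and distal summits overlapped in their match. Of all strong Ctcf summits, 17.6% had a match with 0 mismatches, 50.3% one with at most 1 and 68.9% one with at most 2. A Rad21 summit lay 23 bp from Ctcf at Pgk1 (33.0), 40 bp at distal Hk2 (27.8) and 10 bp at distal Gapdh (12.5), but 324 bp at the Pfkl start (4.09) and 2623 bp at distal Eno1 (2.14).

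Among 37 other isozymes, carriers, regulators and gluconeogenic genes of the pathway, Arid1a was listed at 10 starts, Brg1 at 13 and WT H3K9me3 at 8, where 35.2%, 39.6% and 38.7% of all starts had them. They were strong at 0 of 37 starts in each, beside shares of all starts so low (0.196%, 0.319% and 0.0822%) that nothing can be read from this count. The testis isozyme Pgk2 had no summit in any list. Strong Ctcf summits lay at 6 of the 37 starts, beside 17.5% of all starts. These were the glucose carriers Slc2a4 (66.9) and Slc2a1 (21.8), the transcription factor gene Myc (56.8), Gpi1 (16.6), Pfkfb1 (15.5) and Hk1 (15.4). Rad21 was strong at 5 of the 37, beside 9.09% of all starts, namely Myc (37.8), Slc2a4 (33.7), Fbp2 (23.1), Slc2a1 (14.3) and Hk1 (11.96). H3K27me3 was listed at 13 of the 37 starts in WT and 11 in KO, beside 23.4% and 19.8% of all starts. It was strong at Pklr, the pyruvate kinase of liver and red cells (15.95 in WT, 11.2 in KO), where 5.22% of all starts were strong in WT. Of 6 gluconeogenic genes, 4 had H3K27me3 in both genotypes, and these were, named after their values were seen, Fbp1 (8.59 and 5.47), Pck1 (5.47 and 3.56), G6pc (3.44 and 1.67) and Pcx (2.26 and 3.51).

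Cell identity could not be read from expression here, and the marker lists gave mixed values. At 8 hepatocyte marker starts, Arid1a was listed at 1 (35.2% of all starts) and Brg1 at 2 (39.6% of all starts). Krt8 had both (3.34 and 3.16) and Ttr had Brg1 (2.56). Apoa1 had strong Ctcf (44.5) and Rad21 (11.6) summits, and Alb and Serpina1a had no summit in any list. At 5 fibroblast marker starts, Arid1a and Brg1 were each listed at 4, with the highest at Col1a1 (7.61 and 7.04). WT H3K27me3 was listed at 2 of 8 hepatocyte, 1 of 5 fibroblast, 3 of 4 endothelial, 1 of 4 leukocyte and 2 of 3 neuron markers, and at 23.4% of all starts. Their part in the values of the glycolysis genes was not tested.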

How the data were processed

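The authors used bowtie2 (alignment, mm10), SAMtools and Picard (read filtering and deduplication) and MACS2 (peaks over input, settings left at default); versions are not given in the sources used here. The deposited lists give 1 summit a peak with a −log10 q-value. No value lay under 1.30, the −log10 of 0.05. The 2 input libraries had no list and were not analysed here. Depth is unknown, so counts and strengths carry no correction for it.

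The summits of chromosomes 1 to 19, X and Y were placed with Python 3.11.15, numpy 2.4.6 and pandas 2.3.3 at GENCODE vM21 protein-coding genes, with 1 gene ID a symbol (that with most transcripts, 27 IDs dropped). No summit lay beyond a chromosome end of GRCm38. Sequences came from the reference and RefSeq tables, and copies were searched with blastn 2.17.0. Counts of the 10 genes were set beside the same share of all 21911 genes. The placement was tested on simulated summits. Each group has 1 library, so no test between groups was run. The genes, the gene lists, and the rules for naming genes (all 10, pathway genes with a strong WT summit, the 5 starts nearest to Pgk1 and its neighbours within 100 kb) were chosen with earlier results of these data known.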

Additional observations from a re-analysis of the deposited data

How the results depend on the processing

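Of 73 values recomputed for 13 counts, 53 stayed within 1.5 times the reported count and 20 did not. Of the 73, 11 belong to an alternative chosen after seeing the data, the start of the principal transcript. No paired analysis was possible because each group has 1 library and no comparison came from a test; leaving out a library was not possible for the same reason. The 5 strong lists at Pgk1 stayed 5 under each of its 6 alternatives, but these could not have changed the count. Pgk1 was selected on these summits, which lay from −198 to −115 bp with strengths of at least 22.4. Its principal start is also its outermost start. These 6 values are among the 53 above. With a window of 1 kb, WT H3K27me3 was listed at 0 starts, Rad21 at 4 and all 4 factors at 2. With 5 kb, KO H3K9me3 was listed at 1 start, all 4 factors at 8, and a strong WT summit at 8, of which those outside Pgk1 were Ctcf and, at Tpi1 (17.2) and Gapdh (12.5), Rad21. With any annotated transcript start, KO H3K9me3 was at 1, all 4 factors at 8 and a strong summit at 7, including Brg1 at Gapdh (13.0). With the principal start, KO H3K9me3 was at 1 (Ldha). With a strength of at least 3, WT H3K9me3 was at 3 starts, WT and KO H3K27me3 each at 0, Rad21 at 5, all 4 factors at 2, and more WT than KO H3K27me3 at 2 loci. With every list cut to 70408 summits, WT and KO H3K27me3 were each at 0. Calling 5 strong gave 8 starts. With a flank of 5 kb, more WT than KO H3K27me3 was found at 1 locus. These settings by their construction move the window, the start, the threshold or the number of summits, and no other cause was tested. Unknown depth and single libraries limit all comparisons of WT with KO.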
